A study of Rattus norvegicus with 20 samples.

Results

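The cytosolic heat shock chaperones described here are 5 genes of the 32883 measured in the rat choroid plexus: Hspa8 (ENSRNOG00000034066), Dnaja1 (ENSRNOG00000007029), Dnajb1 (ENSRNOG00000021824), Hsp90aa1 (ENSRNOG00000059714) and Chordc1 (ENSRNOG00000026643). They were taken by name and identifier, and all 5 were detected in all 20 libraries. The study sequenced the choroid plexus, the epithelium-covered tissue that secretes cerebrospinal fluid, of 20 female Zucker rats, 1 library per rat, and asked what obesity changes there with and without added testosterone. Obese Zucker rats carry a leptin receptor deficiency on both alleles (fa/fa) and overeat, whereas the lean rats carry it on a single allele (+/fa), so the lean group is not free of the mutation. In the untreated cohort 6 lean rats (numbers 1 to 6) stood against 6 obese rats (7 to 12). In the injected cohort 4 lean control rats (13 to 16), which received 100 µl of sesame oil under the skin, stood against 4 obese + TT rats (17 to 20), which received 1 mg of testosterone propionate in the same volume of oil, with 2 injections a week for 4 weeks in both groups. All rats were 16 weeks old, and the estrous cycle was not controlled. There was no obese group given oil alone, so obesity and testosterone cannot be told apart in the injected cohort. The label of the tissue held in every library: Ttr, the thyroid hormone carrier that choroid plexus epithelium makes in bulk, took 25.8% to 39.3% of all transcripts. Levels are TPM, in which the transcripts of a library sum to 1000000, a unit that corrects for gene length, so that levels of different genes can be set side by side. The labels state a nominal sequencing output, but the reads counted in each library are not given, so the depth behind each value is unknown. Between 14968 (lean control rat 14) and 16860 genes were above 0 in a library.

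Heat shock chaperones hold newly made and damaged proteins until they fold. Hspa8 (Hsc70) is the HSP70 of the cytosol that cells make at all times, and it works through ATP hydrolysis that J-domain proteins trigger. Dnaja1 and Dnajb1 are such J-domain proteins (HSP40), and Dnajb1 is also a classic gene induced by heat. Hsp90aa1 encodes HSP90 alpha, the stress-inducible HSP90, which takes over kinases, steroid hormone receptors and other clients from HSP70, and Chordc1 (CHP-1, morgana) is a co-chaperone that binds HSP90. The transcription factor HSF1 switches on many of these genes through heat shock elements, repeats of the unit GAA in alternating orientation.

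The promoters are shown because the 5 genes are treated here as targets of the same stress pathway. RefSeq sequence of the GRCr8 assembly, reaching from 250 bases before to 50 bases after the start site, matched 4 of the 5 genes and did not match Hsp90aa1. Both strands were searched for pairs of units (GAANNTTC or TTCNNGAA) and for 3 units in a row (GAANNTTCNNGAA or TTCNNGAANNTTC, reverse complements of each other, each of which holds a pair of both kinds). A pair was present in 4 of 4 promoters, and 3 units in a row in 3 of 4. Over all 33469 promoters of the same length, a pair was present in 15.9% and 3 units in 0.798%. The capitals below mark the matches within the stretch shown, and positions count from the start site, whose base is 1.
Hspa8, chr8:50080264-50080513, plus strand, from -250 to -1: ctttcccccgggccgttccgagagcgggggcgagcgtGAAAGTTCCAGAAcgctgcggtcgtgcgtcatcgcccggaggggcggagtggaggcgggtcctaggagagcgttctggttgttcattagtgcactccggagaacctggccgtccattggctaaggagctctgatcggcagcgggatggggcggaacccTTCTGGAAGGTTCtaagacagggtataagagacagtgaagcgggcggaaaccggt
Dnaja1, chr5:60638344-60638433, plus strand, from -60 to 30: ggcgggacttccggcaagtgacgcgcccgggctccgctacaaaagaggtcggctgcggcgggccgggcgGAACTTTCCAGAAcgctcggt
Dnajb1, chr19:41431112-41431201, minus strand, from -60 to 30: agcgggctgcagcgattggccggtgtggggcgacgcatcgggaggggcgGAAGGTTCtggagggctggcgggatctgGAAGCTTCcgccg
Chordc1, chr8:23650824-23650853, plus strand, from 4 to 33: gcaaccgGAACGTTCGGGAAGATTCCTGAA

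Hspa8 held 3 units in a row at 2 places, starting at -213 and -55. Dnaja1 held them at 10, just after its start site, besides a pair at -181 that lies outside the stretch shown, and Chordc1 in an unbroken run with overlapping matches that started at 11, 16 and 21. Dnajb1 held 2 separate pairs, at -11 and 18, and no match with 3 units. Among other chaperones the 3-unit match was present in 1 of 34 promoters of co-chaperones and cytosolic HSP70 and HSP90 relatives (Hsph1), in 3 of 9 of other stress-induced genes (Hspe1, Hspd1 and Serpinh1), in 1 of 8 of the TRiC/CCT chaperonin (Cct4) and in 0 of 12 of endoplasmic reticulum chaperones. A match is a run of letters, not a measured binding site.

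In lean rats Hspa8 had a lowest level of 344.85, a median of 392.69 and a highest level of 414.51 TPM, and in obese rats the same values were 400.47, 466.4 and 582.63 TPM. Lean control rats 13 to 16 had 655.22, 628.06, 689.23 and 753.09 TPM, and obese + TT rats 17 to 20 had 635.33, 729.75, 651.33 and 782.13 TPM. All 8 injected rats lay above all 12 untreated rats, with the injected groups overlapping almost fully. Hspa8 thereby ranked 240th of all genes in lean rats and 118th in obese + TT rats by mean TPM. In FPKM, a unit scaled to the reads of the library, the separation of injected from untreated rats was lost. Obese rat 12 had 646.19 there, above 628.62, 625.02, 614.48 and 613.67 in rats 13, 14, 17 and 19.

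Dnaja1, the more abundant of the J-domain genes, had a lowest, median and highest level of 148.14, 174.08 and 194.75 TPM in lean rats and of 171.8, 212.55 and 230.23 TPM in obese rats. It had 241.01, 282.65, 316.73 and 281.25 TPM in rats 13 to 16 and 227.85, 227.89, 237.62 and 283.88 TPM in the obese + TT rats. The lean control rats were above every untreated rat, whereas the obese + TT rats overlapped with the highest obese rat. Dnajb1 had a lowest, median and highest level of 22.0, 26.725 and 31.4 TPM in lean rats and of 28.58, 34.81 and 36.8 TPM in obese rats. It had 41.22, 40.63, 56.6 and 46.06 TPM in the lean control rats and 37.78, 36.99, 38.23 and 43.6 TPM in the obese + TT rats. For Dnajb1 the 4 groups formed steps, lean, obese, obese + TT and lean control, in which each overlapped its neighbour except obese and obese + TT, which lay just apart.

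Hsp90aa1 had a lowest, median and highest level of 399.36, 453.19 and 499.55 TPM in lean rats and of 356.43, 394.31 and 455.09 TPM in obese rats. It had 541.11, 738.71, 900.55 and 842.43 TPM in the lean control rats and 610.24, 554.68, 603.63 and 690.39 TPM in the obese + TT rats. It alone of the 5 had a lower mean in obese than in lean rats of the untreated cohort, and lean control rat 13 was its lowest injected rat. Chordc1 had a lowest, median and highest level of 9.3, 11.22 and 16.65 TPM in lean rats and of 14.59, 18.37 and 20.53 TPM in obese rats. It had 32.53, 42.42, 53.82 and 49.01 TPM in the lean control rats and 30.51, 34.05, 33.46 and 48.3 TPM in the obese + TT rats. Every injected rat was thus above every untreated rat also for this HSP90 co-chaperone, the least abundant of the 5 in untreated rats.

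**Figure D1:**
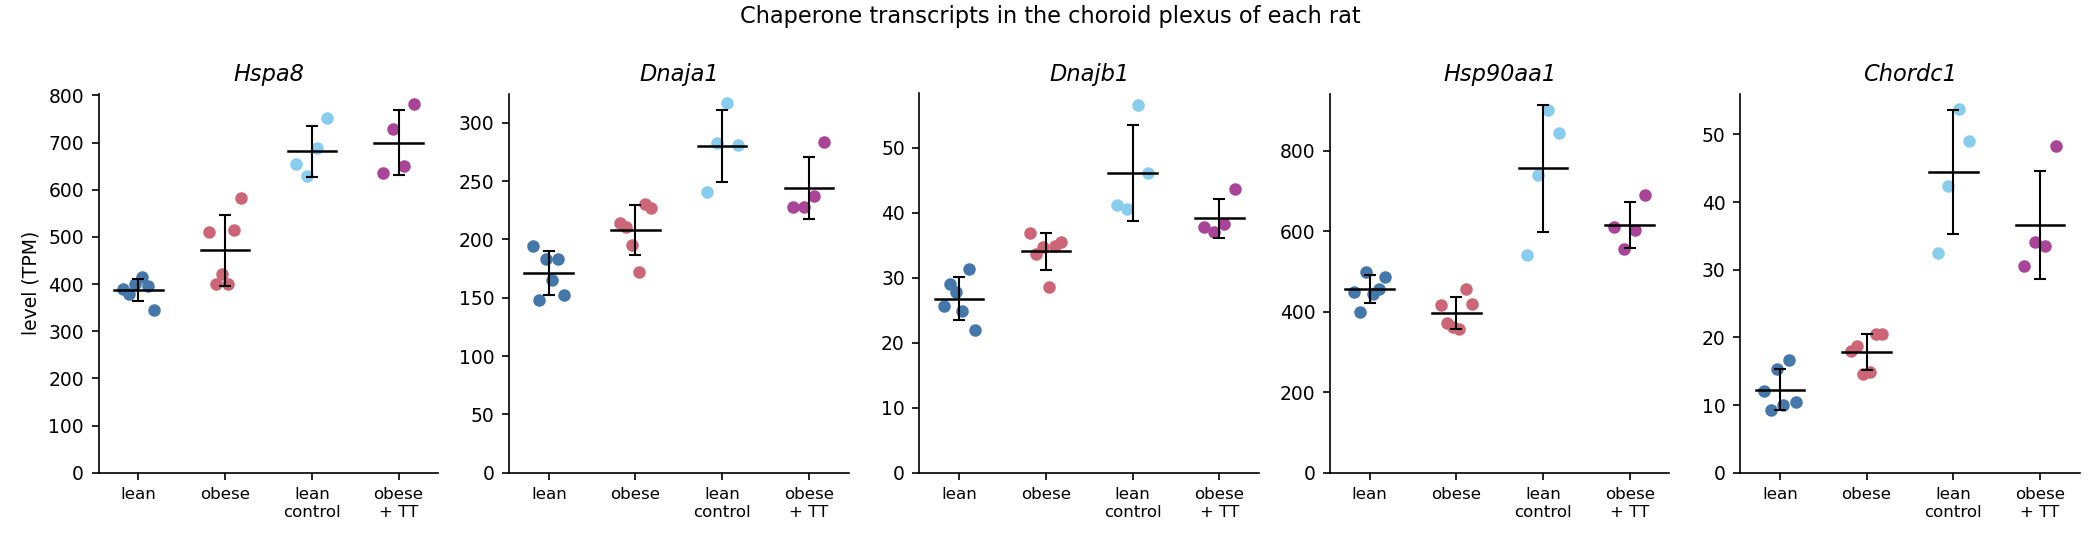
Level of each chaperone (TPM, linear axes from 0) in the 6 lean, 6 obese, 4 lean control and 4 obese + TT rats, with a point per rat, the group mean as a line and the SD as bars. For Hspa8, Dnajb1, Hsp90aa1 and Chordc1 all 8 injected rats sit above all 12 untreated rats.

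In TPM, Hspa8 and Hsp90aa1 were the most abundant of the 5 and exchanged places between groups, which holds only for Hspa8 by itself and not for its sum with 2 similarly behaving genes given below. Hsp90aa1 averaged 455.9 ± 35.3 TPM and Hspa8 387.3 ± 24.1 TPM in lean rats (SD, n = 6), while in obese rats the means were 396.8 ± 39.5 and 471.8 ± 75.1 (SD, n = 6). Dnaja1 came next in every group, followed by Dnajb1 and Chordc1. The last pair was apart in untreated rats, where Dnajb1 exceeded Chordc1 by 1.7 to 3.12 times within a rat, but in injected rats the ratio ran from 0.903 to 1.27 and their ranges overlapped. Together the 5 genes made up 0.0964% to 0.113% of all transcripts in lean rats, 0.0972% to 0.128% in obese rats, 0.151% to 0.202% in lean control rats and 0.154% to 0.185% in obese + TT rats.

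The level of Hspa8 is uncertain to the extent that it shares reads with other genes. The 2 named genes that followed it most closely were AABR07011951.1, which RefSeq names Hsc70-ps1 and classes as a pseudogene, and LOC680121, which RefSeq names Haus8l2 and classes as protein-coding. AABR07011951.1 (64.21 to 149.18 TPM) stood at 0.164 to 0.233 of the Hspa8 level in each library, and LOC680121 (162.17 to 395.42 TPM) at 0.436 to 0.574 of it. Whether they share sequence with Hspa8 was not tested, and how reads were divided among similar genes is not given in the sources used here. Summed with both, Hspa8 averaged 639.8 ± 38.7 TPM in the lean group and 783.2 ± 136 TPM in the obese group (SD, n = 6). The sum averaged 1177 ± 90.5 TPM after oil and 1154 ± 111 TPM after testosterone in oil (SD, n = 4). By the sum Hspa8 was above Hsp90aa1 in 20 of 20 rats.

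In untreated rats Hspa8, Dnaja1, Dnajb1 and Chordc1 averaged higher in obese rats, with log2 fold changes on the log2(TPM + 0.1) scale of 0.27, 0.28, 0.35 and 0.56 (SE 0.09, 0.09, 0.09 and 0.15), and Hsp90aa1 averaged lower, with -0.20 (SE 0.07). The groups overlapped for each of the 5. By limma, a linear model fitted over all 15176 genes that passed a minimum mean of 0.1 TPM, none of the 5 passed an adjusted p of 0.05, with adjusted p from 0.24 for Dnajb1 to 0.388 for Hsp90aa1. Neither did any other gene, so the background share of called genes was 0%, while 897 genes (5.91%) were higher and 569 (3.75%) lower at an unadjusted p under 0.05, and 82 (0.540%) had groups that did not overlap. At the unadjusted level 4 of the 5 chaperones were among the higher genes and Hsp90aa1 among the lower. This is a description only: the 5 genes were chosen with results of this contrast known, the study's own list of changed genes in this cohort holds them, and the direction here is no independent evidence. In a bulk tissue, fewer cells of a type and less RNA per cell cannot be told apart.

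**Figure D2:**
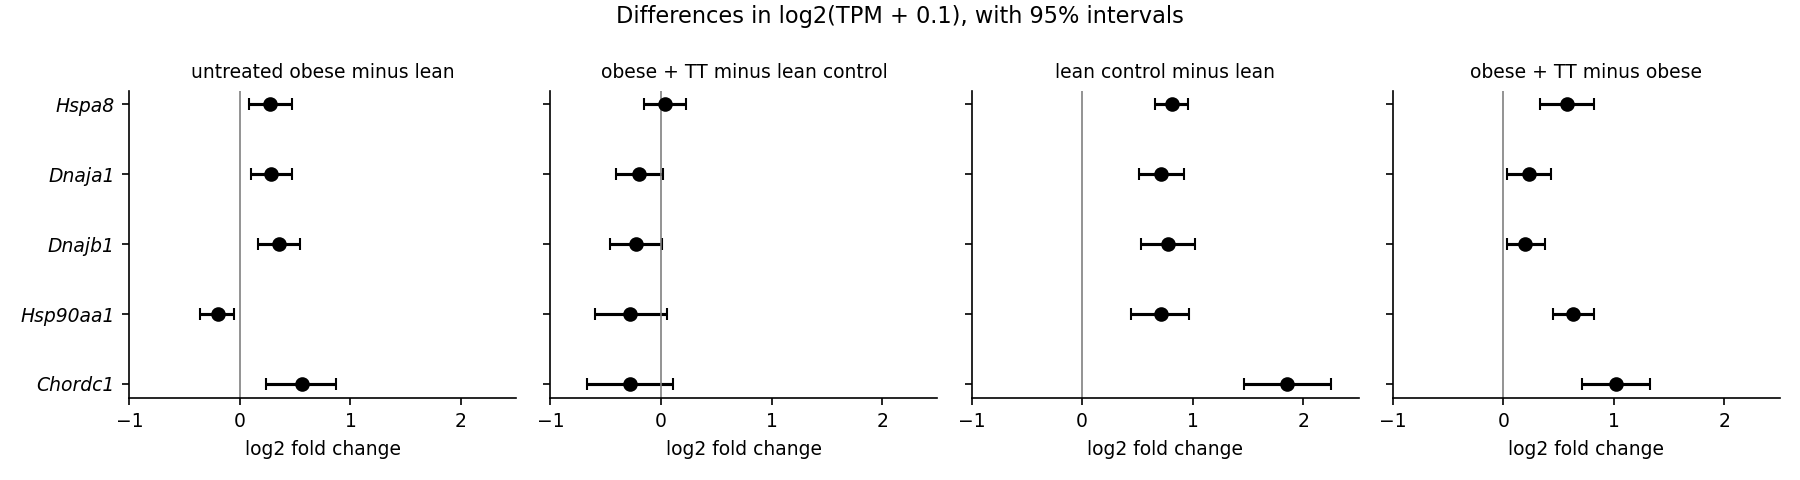
Log2 fold change of each chaperone on the log2(TPM + 0.1) scale in 4 comparisons, as points with 95% intervals from limma. Intervals in the untreated comparison lie above 0 for 4 genes and below it for Hsp90aa1, include 0 for all 5 in the injected comparison, and lie above 0 in both comparisons of injected with untreated rats.

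The proportion of Hsp90aa1 to Hspa8 within a rat is not affected by how a library is scaled. In lean rats it ran from 1.06 to 1.41 (median 1.15) and in obese rats from 0.718 to 0.926 (median 0.872), so the untreated groups did not overlap. It was 0.826, 1.18, 1.31 and 1.12 in lean control rats 13 to 16 and 0.961, 0.76, 0.927 and 0.883 in obese + TT rats 17 to 20. Hsp90aa1 exceeded Hspa8 in 6 of 6 lean and 0 of 6 obese rats of the untreated cohort. In the injected cohort it did so in 3 of 4 lean control rats, the exception being rat 13, and in 0 of 4 obese + TT rats. With Hspa8 summed with AABR07011951.1 and LOC680121, Hsp90aa1 exceeded it in 0 of 20 rats, while the ratio, at 0.633 to 0.852 in lean and 0.425 to 0.566 in obese rats, still did not overlap between the untreated groups. By that sum it was 0.498 to 0.73 in lean control and 0.465 to 0.587 in obese + TT rats, which overlapped. In the injected cohort the log2 difference was -0.31 and did not pass an exact two-sided permutation test (p = 0.114, smallest possible 0.0286), with the 2 groups overlapping through rat 13. The ratio was singled out after the values were seen. Both genes are also on the study's list of changed genes in the untreated cohort, where their values have opposite signs. A ratio of Hsp90aa1 to another member that separates the untreated groups is thus no independent evidence. Of the 10 ratios between pairs of the 5 genes, the untreated groups were apart in 4, each of them a ratio with Hsp90aa1, and the other 6 overlapped. In the injected cohort 2 were apart: Hspa8 to Dnaja1 (2.74 to 3.2 in obese + TT against 2.18 to 2.72 in lean control rats) and Hspa8 to Dnajb1 (16.8 to 19.7 against 12.2 to 16.4). How often the ratios of other pairs of genes were apart was not computed. With Hsp90ab1, the constitutive HSP90 beta, as the partner, the Hsp90aa1 ratio was 1.22 to 1.57 in lean, 1.04 to 1.36 in obese, 1.11 to 1.32 in lean control and 0.91 to 1.19 in obese + TT rats, with overlap in both cohorts.

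**Figure D3:**
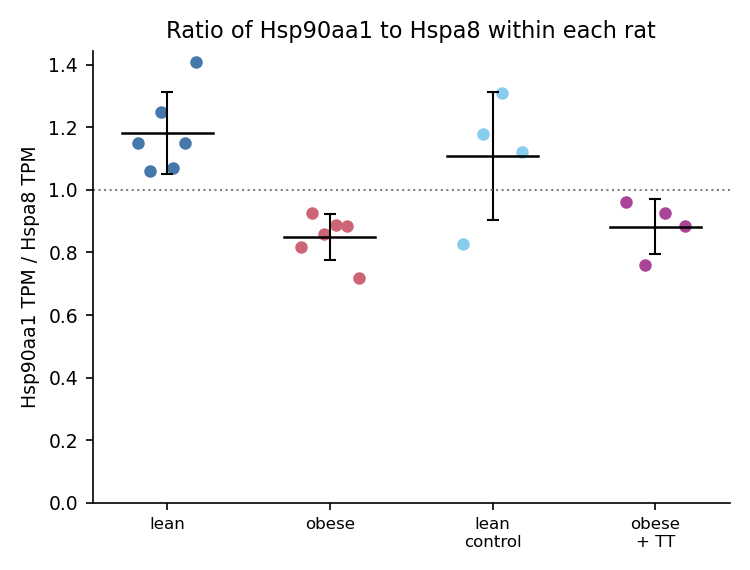
Ratio of Hsp90aa1 TPM to Hspa8 TPM within each rat by group, with the group mean as a line, the SD as bars and a dotted line at 1. All 10 obese and obese + TT rats lie under 1, and 9 of 10 lean and lean control rats above it.

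Other chaperone families were read through lists of genes by their role, counting only identifiers that the study paired with a symbol irrespective of the result. Of the co-chaperones and cytosolic relatives, 19 of 44 could be followed, and in untreated rats 1 was higher and 0 lower in obese rats at an unadjusted p under 0.05, with a median log2 fold change of 0.06 against 0.02 over all genes. The higher gene was Dnaja2, a close relative of Dnaja1 (0.17, limma adjusted p = 0.49). Hsp90ab1 differed by 0.02 and Hsph1, the HSP110 that recharges HSP70, by 0.09, both within their SE of 0.08 and 0.14. Of the stress-induced genes, 9 of 16 were followed, with 1 higher (Serpinh1, the collagen chaperone HSP47, 0.36, limma adjusted p = 0.302) and 1 lower (Rgs2, a regulator of G protein signalling, -0.59, limma adjusted p = 0.448). The 8 subunits of the TRiC/CCT chaperonin, which folds actin and tubulin, had a median of 0.01 and 4 prefoldin subunits one of 0.04, with none at an unadjusted p under 0.05. The 4 mitochondrial chaperones had a median of 0.01.

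The endoplasmic reticulum chaperones had lower values in obese rats: 12 of the 13 followed were below 0, with a median of -0.13, and 5 had an unadjusted p under 0.05, none of which passed the adjustment. The count was 7 in FPKM (the same reads per length, scaled to the reads of the library), 4 with Ttr left out and 8 with the libraries scaled by the median of ratios, where 4.17%, 3.79% and 5.20% of all genes were lower at that level. The 5 in TPM were Hsp90b1, the HSP90 of that compartment (-0.27, limma adjusted p = 0.209), the disulfide isomerase Pdia4 (-0.26), its HSP70 Hspa5 (-0.21) and the lectins Calr and Canx (-0.17 each), of which Canx had groups that did not overlap. Their values thus had the sign of Hsp90aa1 and not that of Hspa8. Genes whose symbol was known only through the study's list of changed genes are given apart, as they were chosen on these rats: Ahsa2 (0.41), Ier5 (0.39), Xbp1 (0.38) and Fkbp4 (-0.14). Of the immediate early genes only Jund could be followed (-0.19, limma adjusted p = 0.563). The levels of Hspa1a, Hspa1b and Hsf1 were not analysed here.

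**Figure D4:**
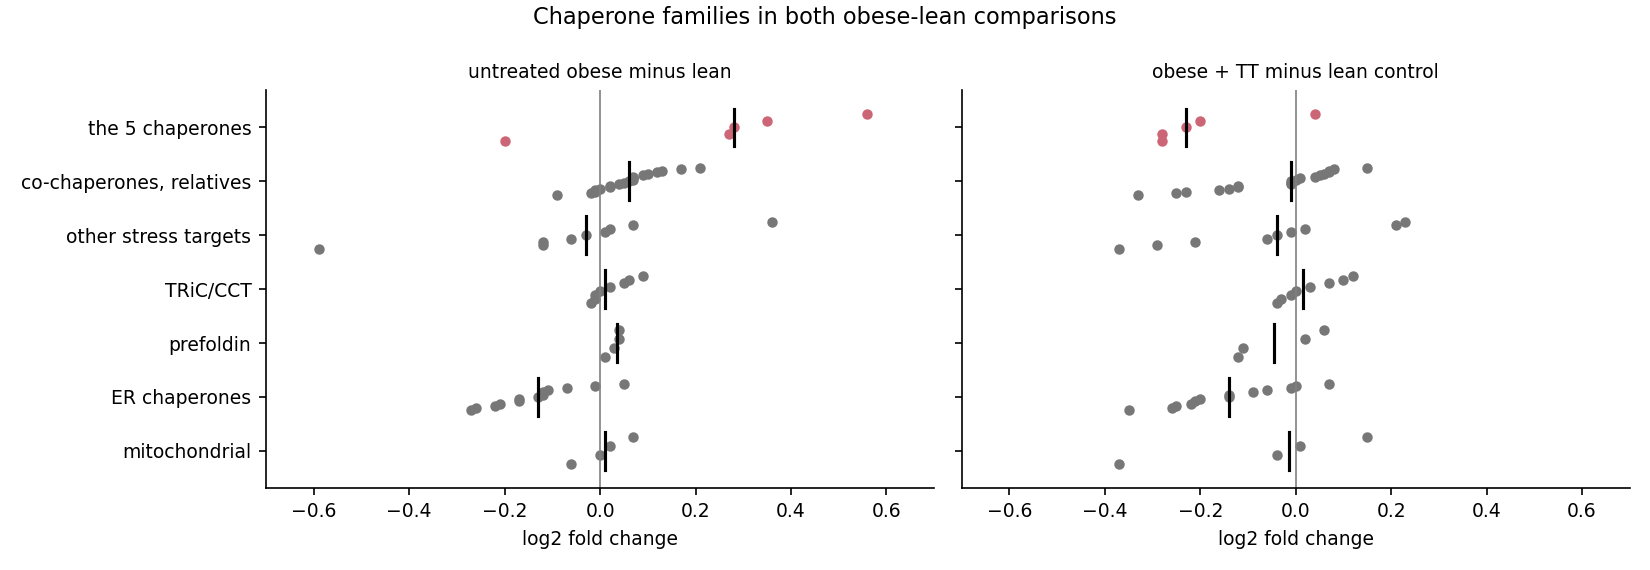
Log2 fold change of each gene (points) by chaperone family in the untreated and injected comparisons, with the family median as a bar and the 5 chaperones in red. The median of the 5 is 0.28 in untreated and -0.23 in injected rats, and that of the endoplasmic reticulum (ER) chaperones is -0.13 and -0.14.

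In the injected cohort none of the 5 chaperones passed the test between obese + TT and lean control rats. The log2 fold changes were 0.04 for Hspa8 (95% interval -0.15 to 0.23), -0.20 for Dnaja1 (-0.41 to 0.02), -0.23 for Dnajb1 (-0.46 to 0.01), -0.28 for Hsp90aa1 (-0.6 to 0.05) and -0.28 for Chordc1 (-0.67 to 0.11). The limma adjusted p ran from 0.676 to 0.952, and the exact permutation p from 0.0857 to 0.714. The groups overlapped for all 5. Of 15259 genes 0% passed an adjusted p of 0.05 in limma, 648 (4.25%) were higher and 486 (3.19%) lower at an unadjusted p under 0.05, and 614 (4.02%) had groups that did not overlap. The intervals of Dnaja1, Dnajb1, Hsp90aa1 and Chordc1 thus reached well below 0 and little above it, and that of Hspa8 lay on both sides of it. Summed with AABR07011951.1 and LOC680121, Hspa8 was at -0.03. For Hspa8 the sign was also lost without obese + TT rat 20 (-0.02) and without lean control rat 14 (0.0).

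Among the families in the injected cohort, 0 of 19 co-chaperones were higher and 1 lower at an unadjusted p under 0.05, the HSP70 relative Hspa13 (-0.33, limma adjusted p = 0.473), whose groups did not overlap. Stip1, the adaptor that links HSP70 to HSP90, was at -0.25 (limma adjusted p = 0.672) and Fkbp4, an immunophilin of steroid receptor complexes known only from the list of changed genes, at -0.31 (limma adjusted p = 0.668). Serpinh1 was at -0.21 (limma adjusted p = 0.62), opposite to its sign in untreated rats. Of the 13 endoplasmic reticulum chaperones 0 were higher and 1 lower at that level, Manf (-0.35, limma adjusted p = 0.548), with a family median of -0.14. The count of lower endoplasmic reticulum chaperones was 4 in FPKM, 5 with Ttr left out and 4 by the median of ratios, where 4.10%, 5.04% and 4.31% of all genes were lower, and that of lower co-chaperones was 2 under each of these scalings. Higher at that level were 1 of the 8 TRiC/CCT subunits, Cct2 (0.12, limma adjusted p = 0.627), whose groups did not overlap, 1 of the 9 stress-induced genes, the ubiquitin gene Ubb (0.21, adjusted p = 0.668), and 1 of the 4 mitochondrial chaperones, Hspa9 (0.15, adjusted p = 0.668). Serpinh1 was the 1 stress-induced gene that was lower. The medians of these families in TPM were 0.02, -0.04 and -0.01, and the 4 prefoldin subunits had one of -0.04 with none at that level. With Ttr left out 0 genes of the TRiC/CCT, stress-induced and mitochondrial lists were higher at that level, beside 485 of 15692 genes in all. There 2 stress-induced genes and 1 mitochondrial chaperone were lower.

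The difference between the cohorts in the obese-lean contrast was negative for all 5 chaperones: -0.24 for Hspa8 (SE 0.14), -0.48 for Dnaja1 (0.14), -0.58 for Dnajb1 (0.14), -0.07 for Hsp90aa1 (0.16) and -0.84 for Chordc1 (0.25). Dnajb1, Dnaja1 and Chordc1 had unadjusted limma p of 0.000667, 0.00213 and 0.0028, at ranks 36, 92 and 116 of 15406 genes, but adjusted p of 0.285, 0.356 and 0.366. At an unadjusted p under 0.05, 704 genes (4.57%) had a negative difference, and 0% of all genes passed the adjustment. The untreated side of this difference served to choose the genes, so that no more than a description can be read from it. Hsp90aa1 turned to 0.02 without lean control rat 15.

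For each of these genes the largest of the contrasts tested was that of lean control against lean rats. In lean control against lean rats all 5 rose: Hspa8 by 0.81 on the log2 scale (SE 0.07, limma adjusted p = 1.07e-06, 1.76-fold), Dnaja1 by 0.71 (0.09, 3.78e-05), Dnajb1 by 0.78 (0.11, 8.47e-05), Hsp90aa1 by 0.71 (0.12, 0.000346) and Chordc1 by 1.85 (0.18, 3.39e-06, 3.62-fold). The groups were apart for 5 of 5 chaperones, each with an exact permutation p of 0.00952. The background was wide: of 15326 genes 41.7% rose and 16.5% fell at an adjusted p under 0.05, and 34.0% were higher without overlap. Against 6472 genes averaging 10 TPM or more, a value as high as that of Hspa8, Dnaja1, Dnajb1 and Hsp90aa1 was seen for 13.8%, 17.8%, 15.1% and 18.0%, but as high as that of Chordc1 for 0.618%. Chordc1, the HSP90 co-chaperone, thus had the largest shift of the 5, at a size few genes reached.

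In obese + TT against obese rats Chordc1 rose by 1.02 (SE 0.14, limma adjusted p = 7.14e-05, 2.03-fold), Hsp90aa1 by 0.63 (0.08, 5.35e-05) and Hspa8 by 0.58 (0.11, 0.000889), and Dnaja1 and Dnajb1 were higher by 0.23 and 0.20 (adjusted p = 0.0468 and 0.0466). In TPM the groups were apart for 4 of 5, with Dnaja1 the exception, against 34.1% of 15389 genes that were higher without overlap, 41.7% that rose and 16.4% that fell. Values as high were seen for 8.11% of genes for Chordc1, 22.0% for Hsp90aa1, 24.9% for Hspa8, 48.2% for Dnaja1 and 50.4% for Dnajb1. Cohort, injections and, for obese rats, testosterone cannot be told apart in these comparisons.

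Scaling mattered for both cohort comparisons, in which the median of all genes was itself shifted, by 0.24 and 0.25 on the log2 scale. With the libraries scaled by the median of ratios the shift was 0.04 in each, and the share of called genes that were higher went from 71.6% to 53.9% in lean control against lean rats and from 71.8% to 53.4% in obese + TT against obese rats. With FPKM in place of TPM those shares were 49.9% and 48.5%, and with Ttr left out and the rest rescaled 62.6% and 58.6%. In lean control against lean rats the 5 chaperones stayed called under each of these scalings, with 0.60 for Hspa8, 0.50 for Dnaja1, 0.57 for Dnajb1, 0.49 for Hsp90aa1 and 1.64 for Chordc1 by the median of ratios. In obese + TT against obese rats Hspa8, Hsp90aa1 and Chordc1 stayed called (0.36, 0.41 and 0.80), but Dnaja1 and Dnajb1 fell to 0.01 and -0.01 and were not called. Both were also near the threshold within TPM: leaving out single rats ended the call of Dnaja1 in 7 of 10 cases (all but rats 11, 12 and 18) and of Dnajb1 in 8 of 10 (all but rats 7 and 12).

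Among the co-chaperones and relatives, chosen here after their values were seen, Hsph1 rose by 1.24, Hsp90ab1 by 0.96 and Hspa4l by 0.96 in lean control against lean rats in TPM, and by 1.03, 0.75 and 0.75 by the median of ratios. In TPM other HSP70 and HSP90 partners did not pass the test or fell: St13 was at 0.01, Ppp5c at 0.03, Sugt1 at -0.02 and Ptges3 at 0.18 (limma adjusted p = 0.0813), while Dnajc7 fell by 0.23 and Stub1 by 0.40. These values depend on the scaling: by the median of ratios 4 of the 19 genes of this list changed sign, and 8 were below 0. The co-chaperone list as a whole had 11 of 19 genes higher and 2 lower at a limma adjusted p under 0.05 in TPM, but 7 higher and 7 lower by the median of ratios, beside 41.7% of all genes higher and 16.5% lower in TPM, and 31.9% and 27.3% by the median of ratios. Endoplasmic reticulum chaperones had 10 of 13 higher and 0 lower in TPM, and 8 higher and 3 lower by the median of ratios, with Hsp90b1 at 0.86 and 0.65 and Hspa5 at 0.78 and 0.57. All 4 prefoldin subunits fell under every scaling, with a median of -0.48 in TPM and -0.70 by the median of ratios. In obese + TT against obese rats the co-chaperones had 8 of 19 higher and 1 lower in TPM, and 5 higher and 6 lower by the median of ratios, where 30.7% of all genes were higher and 26.8% lower, while Hsp90ab1 stayed higher (0.61, limma adjusted p = 0.000131).

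Markers of other cells moved along with these contrasts, and their part in the results was not tested. In lean control against lean rats the stromal gene Dcn differed by -3.08, the endothelial gene Plvap by -3.41 and the pericyte gene Rgs5 by -4.47 on the log2 scale, and in obese + TT against obese rats by -3.22, -3.43 and -4.59. The smooth muscle gene Myh11, known only from the list of changed genes, was at -0.14 (limma adjusted p = 0.39) and -1.07 in these comparisons, and Gja1 of astrocytes, from the same list, at -1.74 and -0.90. The 2 stromal markers with an identifier, of 5, summed to a median of 99.555 TPM in lean, 95.53 in obese, 11.8 in lean control and 9.6 in obese + TT rats, and Plvap alone to 46.86, 46.92, 4.375 and 4.21 TPM. Of 10 epithelial markers 8 rose at a limma adjusted p under 0.05 in lean control against lean rats and 0 fell in TPM, beside 41.7% and 16.5% of all genes. Ttr was the only marker below 0 in TPM (-0.23), and the median was 0.51 in TPM and 0.30 by the median of ratios. In FPKM 6 rose and 1 fell in this comparison, beside 4453 genes higher and 4470 lower of 15408 in all. In obese + TT against obese rats 7 rose and 1 fell in TPM, beside 41.7% and 16.4% of all genes. In the untreated comparison Dcn was at -0.06, the other stromal marker Col1a1, known only from the list of changed genes, at 0.51 (limma adjusted p = 0.384), Plvap at 0.13 and the 10 epithelial markers at a median of -0.04, from -0.35 (Otx2) to 0.06 (Kl). The sign of the Otx2 value rested on the lowest obese rat, at 7.85 TPM. The obese median of Otx2 was 69.705 TPM, above the lean median of 64.96 TPM. The bicarbonate transporter Slc4a5, at -0.21, was the only epithelial marker with an unadjusted p under 0.05 (limma adjusted p = 0.438). Of the red blood cell genes Hba-a1, Hba-a2 and Hbb were at 0.35, 0.41 and 0.43 in the untreated and at 1.12, 1.13 and 0.67 in the injected comparison. In TPM 3 of 3 and 2 of 3 were higher at an unadjusted limma p under 0.05, beside 5.91% and 4.25% of all genes. The untreated count was 2 in FPKM, 2 with Ttr left out and 1 by the median of ratios, and the injected count was 2 under each of these scalings. The red blood cell gene Slc4a1, known only from the list of changed genes, was at 1.01 and 1.37 in the untreated and injected comparisons. Its groups did not overlap in either, but its levels were near the 0.1 TPM added before the log. They ran from 0.09 to 0.29 TPM in lean, 0.3 to 0.73 in obese, 0.13 to 0.34 in lean control and 0.53 to 0.96 in obese + TT rats. Cd74, of antigen-presenting cells, was at 0.20 and -0.69, Myh11 at 0.19 and -0.74 and Gja1 at -0.07 and 0.76, and for Myh11 and Gja1 the injected groups did not overlap. Cd74 was at -1.21 in lean control against lean rats and at -2.11 in obese + TT against obese rats, both at a limma adjusted p under 0.05.

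With each group centred on its mean, all 10 pairs correlated positively over the 12 untreated rats (Pearson r from 0.11 to 0.79, median 0.57) and over the 8 injected rats (0.42 to 0.96, median 0.78). In TPM 5 of 10 pairs in each cohort had a permutation p under 0.05, and none passed the adjustment over all 20 relations. The closest pair in both was Dnaja1 with Chordc1. In untreated rats it had r = 0.79 (permutation p = 0.00531, adjusted p = 0.0694) and Spearman's rho = 0.70 (permutation p = 0.02, adjusted p = 0.134), with r = 0.72 without rats 2 and 10. In injected rats it had r = 0.96 (permutation p = 0.0122, adjusted p = 0.0694) and rho = 0.95 (permutation p = 0.0156, adjusted p = 0.134), with r = 0.89 without rats 13 and 20. The loosest pair was Dnajb1 with Hsp90aa1 in untreated rats (r = 0.11, permutation p = 0.729, rho = 0.08, permutation p = 0.811, r = 0.09 without rats 6 and 10). In injected rats Hspa8 had r = 0.42 with Hsp90aa1 and 0.51 with Dnaja1, and 0.06 and 0.20 without rats 16 and 20. Without single rats its correlation with Dnaja1 ran from 0.17 to 0.62.

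All 5 genes lay above their own group mean in 5 of the 12 untreated rats (3, 5, 7, 11 and 12) and below it in 1 (rat 10, by 0.15 to 0.27 on the log2 scale). In the injected cohort all 5 lay above in 3 rats (15, 16 and 20) and below in 3 (13, 17 and 19). The correlations depended on the scaling in untreated rats, where the median r was 0.35 in FPKM, 0.40 with Ttr left out and 0.21 by the median of ratios (range -0.57 to 0.59). In injected rats the median r stayed at 0.78, 0.76 and 0.77. Under these 3 scalings 1, 1 and 0 of 10 untreated pairs had a permutation p under 0.05, and 9, 9 and 8 pairs were positive. Of the injected pairs 6, 5 and 6 had a permutation p under 0.05, and all 10 stayed positive.

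**Figure D5:**
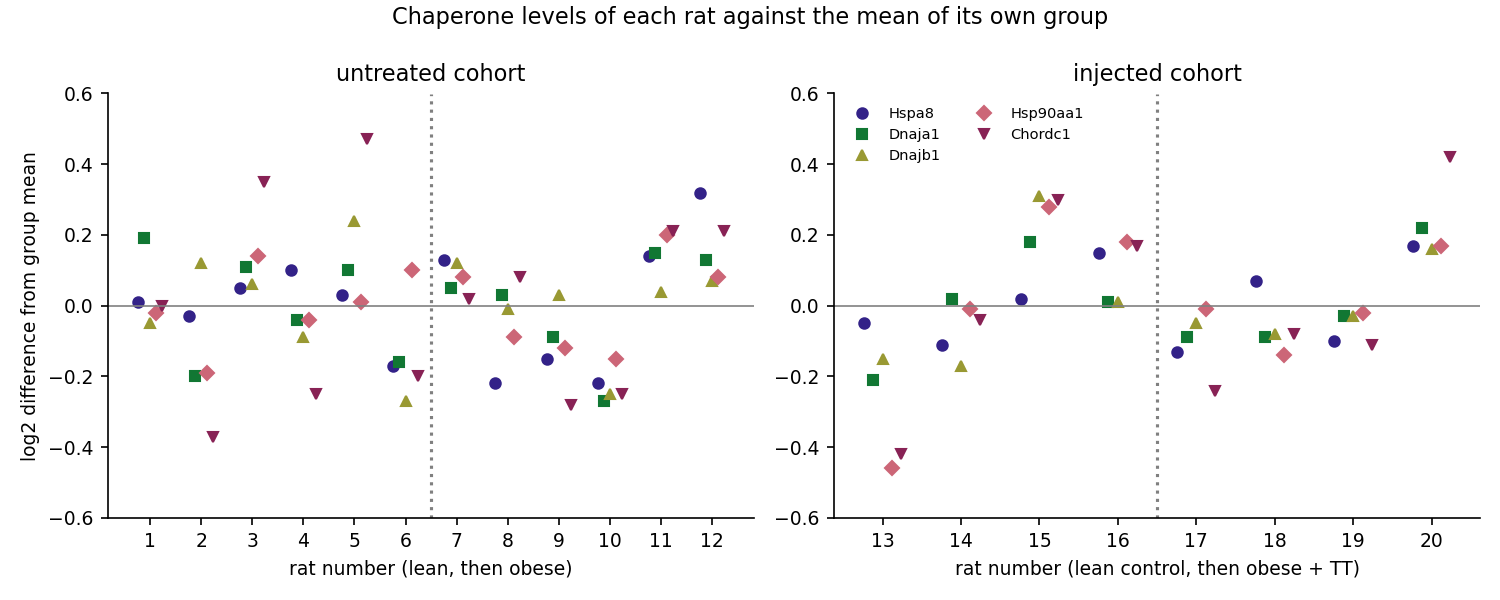
Log2 difference of each chaperone from the mean of its rat's own group, for the 12 untreated rats (left) and the 8 injected rats (right), with a marker per gene and a dotted line between the groups. All 5 markers lie on the same side of 0 in 6 of 12 untreated and 6 of 8 injected rats.

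Over the 20 group-centred libraries each chaperone was set beside the 6471 other genes averaging 10 TPM or more, as a description, since all genes share the libraries and their scale. Only genes with a known symbol are named, so that ranks are given and genes in between are left out. For Dnaja1 they were Tardbp, an RNA-binding protein (rank 1, r = 0.89), Chordc1 (rank 3, 0.85), Krcc1 (rank 4, 0.85), Cct8 of the TRiC/CCT chaperonin (rank 6, 0.83) and Ppid, an HSP90-binding immunophilin (rank 8, 0.81). For Chordc1 they were Tardbp (rank 3, 0.87), Ppid (rank 5, 0.87), Ociad1 (rank 6, 0.86), Dnaja1 (rank 8, 0.85) and Nono (rank 15, 0.82). For Hspa8 they were LOC680121 (rank 1, 0.93), AABR07011951.1 (rank 3, 0.87), Ptpn11 (rank 5, 0.86), Hnrnpa3 (rank 9, 0.85) and Sfpq (rank 10, 0.84). For Dnajb1 the first named genes were Rilpl1, Tra2b and Cox6b1, at ranks 5 to 7 (0.77, 0.76 and 0.76), and for Hsp90aa1 they were Pdia4 of the endoplasmic reticulum, Cald1, the HSP90 partner Fkbp4 and Dnaja4, at ranks 4 to 7 (0.78, 0.77, 0.76 and 0.74). The chaperones themselves were far down some of these orders and nearer the top of others. Dnaja1 had Chordc1 at rank 3, Hsp90aa1 at 70, Dnajb1 at 227 and Hspa8 at 373. Chordc1 had Dnaja1 at rank 8, Hsp90aa1 at 84, Dnajb1 at 308 and Hspa8 at 854. For Hspa8 the other 4 members stood at ranks 992 (Dnaja1), 1387 (Chordc1), 1719 (Dnajb1) and 2033 (Hsp90aa1). For Dnajb1 Chordc1 stood at rank 97, Dnaja1 at 144, Hspa8 at 889 and Hsp90aa1 at 1208. For Hsp90aa1 Chordc1 stood at rank 11 and Dnaja1 at 18, but Dnajb1 at 649 and Hspa8 at 667. The median r of all genes was 0.30 for Hspa8, 0.26 for Dnaja1, 0.29 for Dnajb1, 0.15 for Hsp90aa1 and 0.27 for Chordc1.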

How the data were processed

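Choroid plexus of the lateral and the fourth ventricle was dissected and sequenced as paired ends on an Illumina NovaSeq instrument. The submitters' processing notes name STAR 2.7.9a, RSEM 1.3.3, DESeq2 3.16 and the builds Rnor_6.0 and rn6. The authors deposited TPM and FPKM per gene and rat, both made before this work. Read counts were not analysed here, so the depth per library is unknown and no counting error is given. TPM sums to 1000000 per library. From TPM, log2(TPM + 0.1) was fitted with limma 3.58.1 in R 4.3.3 (trend on the mean, groups of the comparison only, genes averaging 0.1 TPM or more), with Benjamini-Hochberg adjustment over all genes, tested on simulated data. Single values were tested with SciPy 1.17.1 by exact permutation, two-sided. Nothing states that the libraries are technical repeats, and at most 1.92% of values were identical within a pair of libraries of a group. Symbols came from the study's gene sheets (2616 identifiers). The members and lists were chosen with earlier results of these data known. Named were the 5 genes, Hsp90ab1 and Ttr, the most abundant and lowest-p genes of each list, and for each member the 5 genes with a symbol that were most like it (3 to 5 of them printed), and of the cohort comparisons genes of those lists chosen after their values were seen. Libraries without Ttr, FPKM, median-of-ratios scaling, other pseudocounts and filters, an untrended, a robust and a 20-library fit, and single rats left out were the alternatives. Hspa8 summed with AABR07011951.1 and LOC680121, and the ratio of Hsp90aa1 to Hspa8 with that sum or without single rats, were added after the data were seen.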

Additional observations from a re-analysis of the deposited data

Results flagged for a closer look

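In 32 groups of values by rat, among them the levels of the 5 chaperones, no rat stood far apart from its group by Dixon's 95% limit, where chance alone gives about 1.6 such cases.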

How the results depend on the processing

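No paired analysis was possible because the groups share no replicate numbers. Among all genes, the count passing an adjusted p of 0.05 in limma went from 0 to 1 (FPKM), 1 (median of ratios) and 3 (all 20 libraries in 1 fit) in the untreated comparison, from 0 to 6 (all 20 libraries) in the injected comparison, and from 0 to 1 (mean of at least 1 TPM), 2 (FPKM), 10 (Ttr left out), 2 (median of ratios) and 1 (robust fit) for the difference between cohorts. Without single rats these counts ran from 0 to 1, from 0 to 25 and from 0 to 14, with 25 and 14 both reached without lean control rat 13, and no member among them. In lean control against lean rats the count ran from 8206 to 8822, and in obese + TT against obese rats from 8244 to 8908. Hspa8 in the injected comparison was -0.03 summed with AABR07011951.1 and LOC680121, and -0.02 to 0.09 without single rats. Without single rats Dnaja1 ran from -0.27 to -0.14 and Dnajb1 from -0.28 to -0.12 in that comparison. Hsp90aa1 ran from -0.43 to -0.18 there and Chordc1 from -0.42 to -0.18. In obese + TT against obese rats Dnaja1 was 0.23 with no filter, -0.05 in FPKM, 0.08 with Ttr left out, 0.01 by the median of ratios and 0.23 without trend, and 0.16 to 0.26 without single rats. Dnajb1 was -0.07 in FPKM, 0.05 with Ttr left out, -0.01 by the median of ratios, 0.20 without trend and 0.20 with all 20 libraries, and 0.15 to 0.23 without single rats. The log2 ratio of Hsp90aa1 to Hspa8 ran from -0.51 to -0.42 in the untreated and from -0.45 (without rat 13) to -0.23 in the injected comparison without single rats. The Hsp90aa1 difference between cohorts ran from -0.23 to 0.02. Pairs of members whose correlation passed an adjusted p of 0.05 numbered 0 to 3 without single untreated rats (3 without lean rat 6) and 0 in the injected cohort. The untreated correlation of Dnaja1 with Dnajb1 was -0.11 by the median of ratios, and that of Dnajb1 with Hsp90aa1 was -0.31 in FPKM, -0.23 with Ttr left out, -0.57 by the median of ratios and -0.14 to 0.35 without single rats. The cause of these changes was not tested. Without read counts, the precision of low values is unknown.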
